A study of Mus musculus with 36 samples.

Results

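The genes described here encode the receptors and the SMAD proteins that carry TGFβ and activin signals: Smad2, Smad3, Smad4, Tgfbr1, Tgfbr2, Tgfbr3, Acvr1b, Acvr2a and Acvr2b. They were taken by name from the tables of normalized counts for mouse pancreatic cancer cells, embryoid bodies and pancreatic organoids, and all 9 were found in every table, out of 20960 genes listed in at least 1 of them. The ligands TGFβ and activin bind a type II receptor (Tgfbr2 for TGFβ, Acvr2a or Acvr2b for activin and Nodal), which phosphorylates a type I receptor (Tgfbr1 or Acvr1b). The type I receptor then phosphorylates Smad2 and Smad3, which join Smad4, the common partner, and enter the nucleus to act on target genes. Tgfbr3 (betaglycan) is a co-receptor that presents TGFβ2 to Tgfbr2 and takes part in inhibin binding. Loss of SMAD4 is frequent in human pancreatic cancer, and Nodal acting through Acvr1b and Smad2 directs formation of mesoderm and endoderm in the mouse embryo.

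The study, by its title, concerned TGFβ together with RREB1, a zinc finger transcription factor. The pancreatic ductal adenocarcinoma (PDA) line KSIC_806, whose libraries carry the mark S4 in their titles, was labelled RREB1 KO or RREB1 WT and was given 100 pM TGFβ for 1.5 h or 2.5 µM SB505124, which blocks the kinase of Tgfbr1, Acvr1b and Acvr1c, for 6 h. Each of its 4 groups had 2 libraries. E14 mouse embryonic stem cells labelled RREB1 KO or WT were collected as embryoid bodies (EBs) at day 4 or at day 0, also with 2 libraries per group. CIY pancreatic organoids received TGFβ or SB505124 on the same schedule, with doxycycline at 1 µg/mL at plating or without it, and each condition was 1 library. What the mark S4 and the letters CIY stand for, which gene doxycycline induces, how the KO cells were made and whether they are 1 clone are not given in the sources used here. The inhibitor was applied for longer than TGFβ, so ligand and duration cannot be told apart in any comparison of TGFβ with SB505124. The labels do not say whether libraries with different replicate numbers came from separate cultures, so the p-values below measure the spread between these libraries, which may be technical.

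The 20 RNA-seq libraries held 19885697 to 44504338 reads over listed genes. Of the PDA libraries, 7 held 38728354 to 44504338 reads and the first KO library under SB505124 held 20410770 reads. Rreb1 was read at 2560.4 to 2886 normalized counts in KO-labelled PDA cells under TGFβ and 2164 to 2195 under SB505124, against 4212 to 4293 in WT under TGFβ and 1458 to 1501 under SB505124. In EBs it was at 1512 to 1920.5 in KO-labelled cells at day 4 and 2642 to 2830.0 at day 0, against 1482 to 1586 in WT at day 4 and 1019 to 1085 at day 0. A count over the whole gene does not show a small deletion, so these values neither check the KO label nor set the size of the loss, and the directions below are those of the labels. The established SMAD targets Smad7 and Skil followed the treatment: Smad7 was 2.19 higher on the log2 scale under TGFβ in KO-labelled and 2.60 higher in WT PDA cells, and Skil 2.63 and 3.34 higher. The 7 epithelial markers (Krt7, Krt8, Krt18, Krt19, Epcam, Cdh1 and Sox9) summed to 383676 to 608710 normalized counts in PDA libraries and 205626 to 276618 in organoids, although Epcam (68.4 to 357) and Sox9 (25.5 to 452) were low in PDA cells. All 6 pluripotency markers were read in the E14 libraries.

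The promoters of the receptor pair Tgfbr1 and Tgfbr2, which changed in opposite directions under TGFβ in WT PDA cells, and of Smad3, which of Smad2, Smad3 and Smad4 rose most there, are shown as RefSeq gives them on GRCm38.p6 (mm10), from 250 bases before to 50 after the annotated start, 5′ to 3′ on the gene's strand. Capitals mark CAGAC, the core letters bound by SMAD3 and SMAD4, and AAACCAC, letters of the element known for RREB1, on either strand. Tgfbr1 has 2 windows, the second within the span of the gene (chr4:47353222-47414926).
Tgfbr1 window 1, chr4:47352972-47353271, plus strand: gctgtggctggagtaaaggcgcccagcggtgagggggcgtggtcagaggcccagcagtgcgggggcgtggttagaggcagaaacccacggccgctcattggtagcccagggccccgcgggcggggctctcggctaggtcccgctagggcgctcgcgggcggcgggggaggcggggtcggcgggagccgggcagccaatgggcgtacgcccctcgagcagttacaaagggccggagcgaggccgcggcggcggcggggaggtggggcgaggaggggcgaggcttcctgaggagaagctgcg
Tgfbr1 window 2, chr4:47385966-47386265, plus strand: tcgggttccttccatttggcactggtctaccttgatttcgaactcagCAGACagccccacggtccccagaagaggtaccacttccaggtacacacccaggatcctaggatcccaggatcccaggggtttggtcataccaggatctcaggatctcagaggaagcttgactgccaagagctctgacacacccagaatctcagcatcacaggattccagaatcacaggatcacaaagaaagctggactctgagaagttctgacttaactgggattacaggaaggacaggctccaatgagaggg
Tgfbr2, chr9:116175314-116175613, minus strand: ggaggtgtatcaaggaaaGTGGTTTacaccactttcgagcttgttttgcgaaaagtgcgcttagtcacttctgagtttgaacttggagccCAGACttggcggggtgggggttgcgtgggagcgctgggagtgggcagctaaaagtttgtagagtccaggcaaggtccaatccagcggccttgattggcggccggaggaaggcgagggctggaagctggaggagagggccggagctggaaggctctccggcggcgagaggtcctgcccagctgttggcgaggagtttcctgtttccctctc
Smad3, chr9:63757945-63758244, minus strand: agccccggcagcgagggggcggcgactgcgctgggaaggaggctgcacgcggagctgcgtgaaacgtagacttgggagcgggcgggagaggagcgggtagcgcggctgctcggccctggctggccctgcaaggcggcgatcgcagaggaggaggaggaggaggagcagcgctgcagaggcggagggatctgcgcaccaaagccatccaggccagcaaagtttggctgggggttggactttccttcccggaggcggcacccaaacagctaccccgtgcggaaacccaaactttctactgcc
The Tgfbr2 window held both kinds of letters, AAACCAC on the opposite strand beginning at −232 and CAGAC at −160 from the start. CAGAC also stood at −203 in the second window of Tgfbr1 and, on the opposite strand, at −188 in Acvr2a and −233 in Acvr2b, so 4 of the 7 windows that matched 6 of the genes held it. The Acvr2b window (chr9:119401928-119402227), like the second of Tgfbr1, lies within the span of its gene. Among all 32851 promoters of the same length, 49.6% held CAGAC, 4.45% held AAACCAC and 0.213% held the palindrome GTCTAGAC, which was in none of the 7. The matches did not overlap each other. They describe letters and not bound sites. The windows of Tgfbr1 (first), Smad3, Acvr1b, Acvr2a and Acvr2b were 67.7 to 80.3% G and C, and those of Tgfbr2 and Tgfbr1 (second) 59.0% and 52.0%, against a median of 52.7% over all promoters.

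Smad4 (GRCm38.p6 chromosome 18, 73634790 to 73703791) was read in all 8 libraries of the cancer line, at 1646 to 3558 normalized counts, and its response to TGFβ had opposite signs in KO-labelled and WT cells. Under TGFβ the KO-labelled libraries stood at 1674 and 1646, against 3379 and 3131 under SB505124. In WT the libraries stood at 3378 and 3558 under TGFβ, against 2600.0 and 2441 under SB505124. The KO libraries under TGFβ were the lowest of the 8, and neither pair of treatment groups overlapped. Smad4 thus fell by 0.97 ± 0.07 (log2 fold change ± SE, limma adjusted p = 6.4e-05) in KO-labelled cells and rose by 0.46 ± 0.07 (adjusted p = 0.00251) in WT, a difference between the responses of −1.43 ± 0.10 (adjusted p = 0.000438). With the inhibitor Smad4 was higher in KO-labelled than in WT cells, by 0.37 ± 0.07 (adjusted p = 0.00358), and by 0.22 after the libraries were rescaled to the same total. Under TGFβ it was lower in KO-labelled than in WT cells (log2 difference −1.06 ± 0.07, adjusted p = 2.14e-05). All of these Smad4 calls held under each of the 15 alternatives. A gene-level count does not separate an introduced copy of Smad4 from the gene's own transcript, nor does it show a deletion of a few exons. In bulk RNA, fewer cells with a transcript and less of it per cell cannot be told apart, here or below.

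Among 11214 genes with a mean of at least 50 normalized counts, those whose pattern over the 8 PDA libraries was nearest to that of Smad4 were Zswim6, Il6st and Samd4, with root mean square differences of 0.138, 0.144 and 0.153 between centred log2 values. Il6st, which encodes the gp130 subunit of interleukin-6 family receptors, averaged 1692 normalized counts in KO-labelled cells under TGFβ and 2549 under SB505124, and 2956 in WT under TGFβ and 2086 under SB505124.

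**Figure D1:**
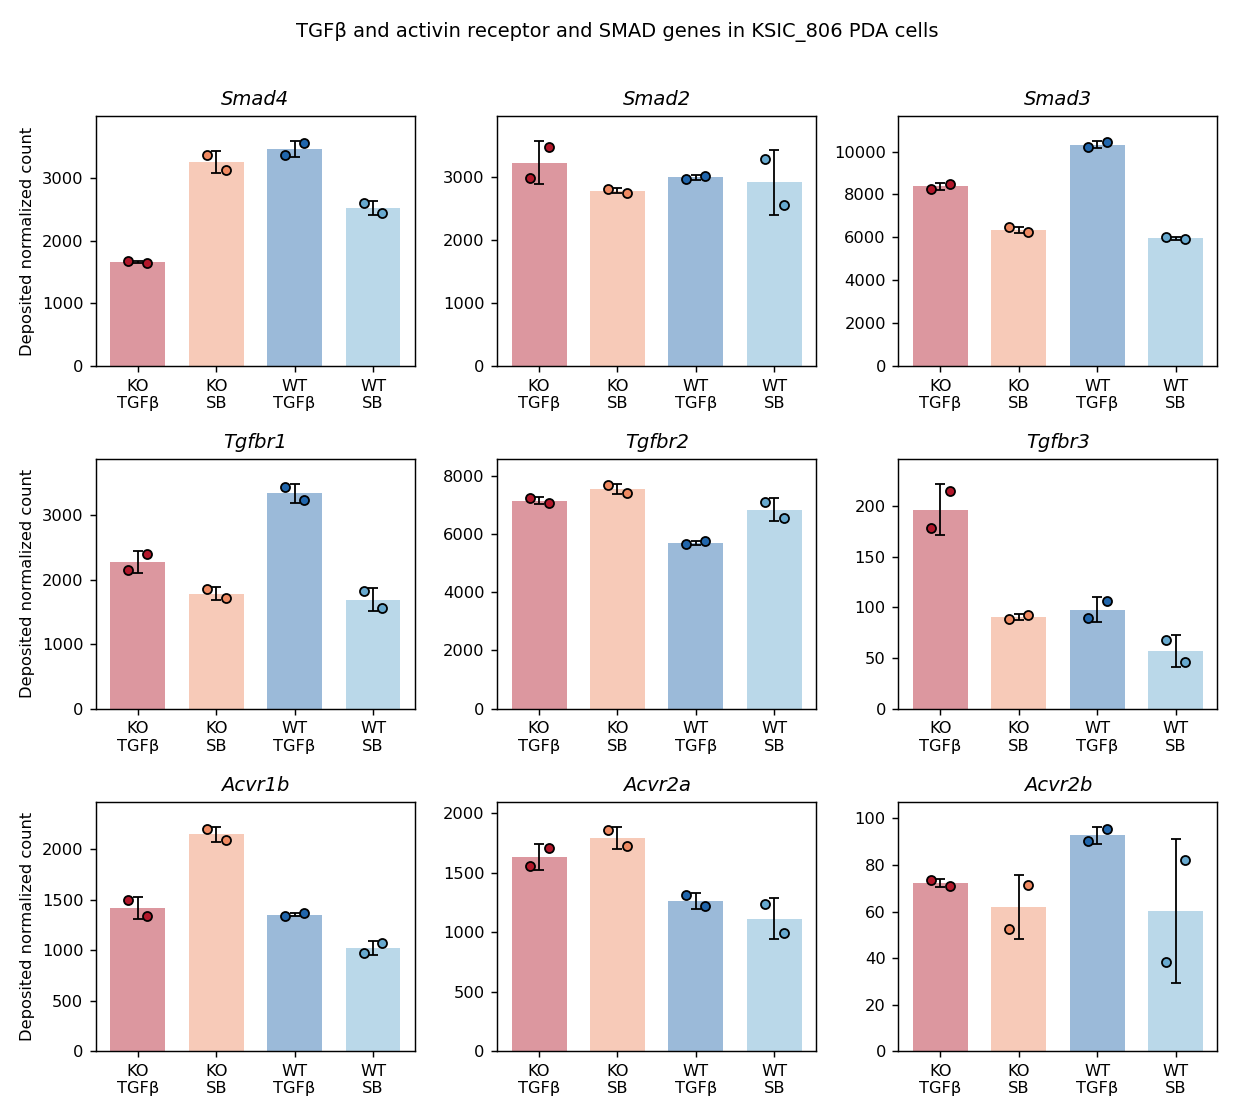
Deposited normalized count (y axis, from 0) of each of the 9 genes in KSIC_806 PDA cells, with KO-labelled cells left of WT and TGFβ left of SB505124; points are libraries, bars are means and error bars are SD (n = 2). Smad4 was lowest in KO-labelled cells under TGFβ (1646 and 1674), while Smad3 and Tgfbr1 were highest in WT cells under TGFβ.

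Smad3 (chromosome 9, 63646766 to 63757994), which binds DNA directly as the partner of Smad4, was higher under TGFβ in both genotypes. It was at 8264 and 8496 normalized counts under TGFβ in KO-labelled cells, against 6459 and 6259.7 under SB505124. In WT it was at 10214 and 10439 under TGFβ, against 6010.4 and 5905. The groups did not overlap, and Smad3 rose by 0.40 ± 0.06 in KO-labelled (adjusted p = 0.00144) and 0.79 ± 0.06 in WT cells (adjusted p = 5.93e-05). The rise was smaller in KO-labelled cells by −0.40 ± 0.08 (adjusted p = 0.0147), but this difference in response passed 0.05 in neither fit without a WT library under TGFβ (adjusted p = 0.0784 and 0.0919) nor in those without a KO library under SB505124 (0.0862 and 0.0642). Under TGFβ, Smad3 was lower in KO-labelled than in WT cells (−0.30 ± 0.06, adjusted p = 0.00447, and 0.0542 without the second WT TGFβ library). With the inhibitor the genotypes gave no call for Smad3 (0.09 ± 0.06, adjusted p = 0.198).

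Smad2 (chromosome 18, 76241090 to 76311748), the closest relative of Smad3, gave no call in the PDA cells. Its libraries were at 2994 and 3476 normalized counts under TGFβ and 2818 and 2758 under SB505124 in KO-labelled cells, and at 2972 and 3022 under TGFβ and 3288 and 2556 under SB505124 in WT. The WT libraries under SB505124 lay on either side of both WT libraries under TGFβ. The TGFβ change was 0.21 (95% interval −0.08 to 0.50) in KO-labelled and 0.05 (−0.24 to 0.34) in WT cells, intervals that allow a change of either sign.

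The type I TGFβ receptor gene Tgfbr1 (chromosome 4, 47353222 to 47414926) rose most with TGFβ in WT cells and rose less in KO-labelled cells. It was at 2159 and 2399 normalized counts under TGFβ and 1852 and 1718 under SB505124 in KO-labelled cells, and at 3444 and 3234 under TGFβ and 1819.9 and 1562 under SB505124 in WT. Its WT libraries under TGFβ were above the other 6. Tgfbr1 rose by 0.35 ± 0.10 in KO-labelled cells (adjusted p = 0.0257) and by 0.98 ± 0.10 in WT (adjusted p = 0.000288), where the change was 1.98-fold. The call for the KO rise was lost without either KO SB505124 library (rise of 0.41 and 0.30) or the second KO TGFβ library (0.28). That call was also lost without either WT TGFβ library, where the rise stayed at 0.35. The WT libraries enter the KO change only through the spread shared by all groups. The difference between the responses was −0.63 ± 0.14 (adjusted p = 0.0188), lost without either WT TGFβ library (0.0981 and 0.0709) or either KO SB505124 library (0.0871 and 0.0572). Under TGFβ, Tgfbr1 was lower in KO-labelled than in WT cells (−0.55 ± 0.10, adjusted p = 0.00327). The long noncoding gene Gm32435 overlaps Tgfbr1, and the library kit does not mark strand, so their reads cannot be told apart.

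Tgfbr2 (chromosome 9, 116087695 to 116175363), the type II receptor that binds TGFβ itself, moved the other way in WT cells. Its libraries stood at 7224 and 7044 normalized counts under TGFβ and 7661 and 7407 under SB505124 in KO-labelled cells. In WT they stood at 5639 and 5747 under TGFβ and 7103 and 6545 under SB505124. The WT libraries under TGFβ were below the other 6. In KO-labelled cells its change was −0.08 ± 0.06 (adjusted p = 0.378). Tgfbr2 fell by 0.26 ± 0.06 in WT (adjusted p = 0.0171), a call lost without the first WT SB505124 library (adjusted p = 0.0532) or either WT TGFβ library (0.124 and 0.0939). The responses did not differ past the threshold (0.18 ± 0.09, adjusted p = 0.197). Under TGFβ it was higher in KO-labelled than in WT cells by 0.33 ± 0.06 (adjusted p = 0.00547, and 0.0572 without the first WT TGFβ library).

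Tgfbr3 (chromosome 5, 107106567 to 107289629), the co-receptor, had low counts and the widest range of the 9 genes in the PDA table. Its libraries were at 179 and 215 normalized counts under TGFβ and 88.5 and 92.7 under SB505124 in KO-labelled cells, and at 89.3 and 106 under TGFβ and 67.9 and 45.6 under SB505124 in WT. The KO-labelled libraries under TGFβ were above all others. Tgfbr3 rose by 1.10 ± 0.21 in KO-labelled cells (adjusted p = 0.00564) and by 0.80 ± 0.21 in WT cells (adjusted p = 0.023), and the responses did not differ past the threshold (0.31 ± 0.30, adjusted p = 0.509). The WT rise was lost after quantile normalization (adjusted p = 0.0742) and without the second WT SB505124 library (0.0759) or either WT TGFβ library (0.0688 and 0.144). Tgfbr3 was higher in KO-labelled than in WT cells under TGFβ (1.00 ± 0.21, adjusted p = 0.00779, and 0.0673 without the first WT TGFβ library). It was also higher with the inhibitor (0.69 ± 0.21, adjusted p = 0.0263), a call lost on rescaling (0.0592), with DESeq2 (0.0537) and without the second WT library (0.114) or either KO library (0.0815 and 0.104). The genes with the nearest pattern were Fgf1, Ankrd44 and Acsl3, at root mean square differences of 0.132, 0.141 and 0.141. Fgf1, a fibroblast growth factor gene, averaged 3118 normalized counts in KO-labelled cells under TGFβ and 1339 under SB505124, and 1312 in WT under TGFβ and 850.2 under SB505124. The fibroblast markers Col1a1 and Pdgfra were also read in these cells, and the 5 fibroblast markers listed summed to 401 to 416 in KO-labelled cells under TGFβ and 119 to 121 under SB505124, against 370.3 to 409 in WT under TGFβ and 59.3 to 64.2 under SB505124. Col1a2 and Dcn stood at most at 1.84 and 2.73. The 2 listed of 3 acinar markers summed to 559 to 605 in KO-labelled cells under TGFβ and 327 to 352 under SB505124, against 143 to 182 in WT under TGFβ and 138 to 149.6 under SB505124, most of it Cela1, with Prss2 at most at 18.4. The part of these markers in the Tgfbr3 values was not tested.

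Of the activin receptors, Acvr1b (chromosome 15, 101174072 to 101213684), the type I receptor for activin and Nodal, differed most between KO-labelled and WT cells with the inhibitor and least under TGFβ. It was at 1494 and 1342 normalized counts under TGFβ and 2200.5 and 2091 under SB505124 in KO-labelled cells, and at 1341 and 1364 under TGFβ and 971 and 1074 under SB505124 in WT. The KO-labelled libraries under SB505124 were the highest of the 8 and the WT libraries under SB505124 the lowest. Acvr1b fell by 0.60 ± 0.09 with TGFβ in KO-labelled cells (adjusted p = 0.0015) and rose by 0.40 ± 0.09 in WT (adjusted p = 0.00951), with a difference of −1.004 ± 0.12 (adjusted p = 0.00259). The WT rise was lost without either WT TGFβ library (adjusted p = 0.0655 and 0.0757). With the inhibitor Acvr1b was 2.10-fold higher in KO-labelled than in WT cells (1.07 ± 0.09, adjusted p = 4.51e-05). Under TGFβ the groups overlapped and the difference was 0.07 (95% interval −0.14 to 0.27). The 4 endoderm markers (Sox17, Foxa2, Gata6 and Gata4) summed to 6948 to 7837 normalized counts in KO-labelled cells under TGFβ and 14552 to 15557 under SB505124, against 3531 to 3719 in WT under TGFβ and 5552 to 6014 under SB505124. The endothelial list summed to 928 to 1006 in KO-labelled cells under TGFβ and 1331 to 1364 under SB505124, against 38.5 to 56.6 in WT, almost all of it Cdh5, with Pecam1 at most at 1.84 and Tek at 7.27. The part of these markers in the Acvr1b values was not tested.

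The type II activin receptor genes gave no call for TGFβ in either genotype when all libraries were used. Acvr2a (chromosome 2, 48814109 to 48903264) was at 1558 and 1711 normalized counts in KO-labelled cells under TGFβ and 1859 and 1723 under SB505124, and at 1311 and 1217 in WT under TGFβ and 1235 and 992 under SB505124. All 4 KO-labelled libraries were above all 4 WT libraries. Without the first WT SB505124 library, Acvr2a was called higher with TGFβ in WT (0.35, adjusted p = 0.0349, against 0.19 with all libraries) and its response differed between KO-labelled and WT cells (−0.48, adjusted p = 0.0389). Acvr2a was higher in KO-labelled cells with the inhibitor (0.69 ± 0.12, adjusted p = 0.00166). It was also higher under TGFβ (0.37 ± 0.12, adjusted p = 0.0376), but that call was lost under 9 of the 15 alternatives. Among them were no filter on low values (adjusted p = 0.0520), rescaling (0.0788) and quantile normalization (0.0571). The call was also lost without either WT TGFβ library (difference 0.42 and 0.32) or the second KO TGFβ library (0.30). Without either KO SB505124 library it was lost too, although the difference stayed at 0.37. The 3′ end of Acvr2a overlaps Orc4, a replication origin gene, and long noncoding, pseudogene and microRNA genes overlap Smad3 (Gm51710), Tgfbr2 (Gm31292), Tgfbr3 (Gm8145) and Acvr1b (Mir6962), so reads in those stretches cannot be assigned without strand. Acvr2b (chromosome 9, 119401583 to 119442148) was at 38.5 to 95.3 normalized counts, its WT libraries under SB505124 were at 38.5 and 82.1, and it gave no call in the PDA comparisons. Without the second of those libraries it was called higher with TGFβ in WT (1.24, adjusted p = 0.00661), the difference between the responses was called (−1.01, adjusted p = 0.0450), and it was called higher in KO-labelled than in WT cells with the inhibitor (0.65, adjusted p = 0.0488).

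For TGFβ in KO-labelled cells, 5 of the 9 genes were called beside 38.7% of all genes tested in the PDA table: 3 higher (20.6% of all genes) and 2 lower (18.0%). In WT, 6 of the 9 were called beside 36.9%: 5 higher (19.4%) and 1 lower (17.6%). The difference between the responses was called for 4 genes beside 21.8%, all 4 with the lower response in KO-labelled cells (12.1%) and none with the higher (9.71%). The medians over the 9 were 0.21 in KO-labelled and 0.46 in WT cells, against 0.023 and 0.0016 over all genes tested, and −0.40 for the difference against −0.010. KO-labelled against WT cells gave 4 calls with the inhibitor beside 56.2% of all genes, all 4 higher (28.9%) and none lower (27.2%). Under TGFβ they gave 6 beside 40.2%, 3 higher (21.2%) and 3 lower (19.0%). The medians there were 0.14 with the inhibitor and 0.066 under TGFβ, against −0.0029 and −0.016. These comparisons share libraries and are not independent. Rescaling every library to the same total shifted the median of all genes by 0.11 for TGFβ in KO-labelled cells and by −0.15 for KO-labelled against WT with the inhibitor, and none of the 55 calls made for these genes in the PDA and EB tables changed direction under it or any other alternative. Without either WT TGFβ library, fewer of the 9 genes were called for TGFβ in WT. Without either of those or either KO SB505124 library, fewer were called for the difference. Calls over all genes also fell in each of these fits, which left 1 library in a group.

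**Figure D2:**
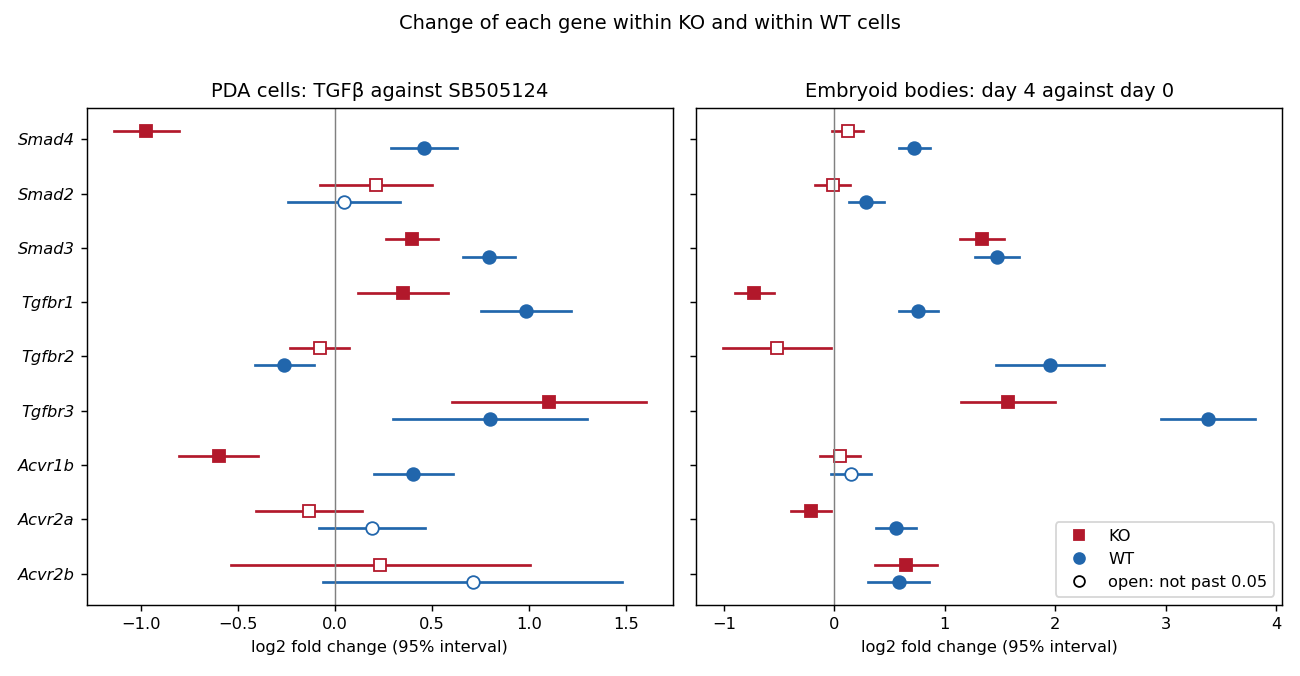
Log2 fold change of each gene with its 95% interval (x axis) in KO-labelled (squares) and WT cells (circles): TGFβ against SB505124 in PDA cells, left, and day 4 against day 0 in embryoid bodies, right; filled points passed an adjusted p of 0.05. Smad4, Acvr1b and, without a call in either genotype, Acvr2a lie on opposite sides of 0 in the PDA genotypes. Tgfbr1, Tgfbr2, Acvr2a and Smad2 do so in the embryoid bodies, where the KO-labelled change passed the threshold for Tgfbr1 and Acvr2a.

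Other genes of the pathway were read from a list of 13 further receptors, co-receptors and SMADs, of which 7 passed the filter in PDA cells, and a list of 14 SMAD adaptors and turnover genes, of which 13 passed. For TGFβ in KO-labelled cells, 3 of the 7 rose and 1 fell (median 0.36), and in WT 3 rose and none fell (median 0.63). Acvr1, a type I receptor used by BMPs and activin, rose by 0.52 ± 0.09 in KO-labelled and 1.38 ± 0.09 in WT cells, and Bmpr2, the type II BMP receptor, by 0.36 ± 0.09 and 1.23 ± 0.09. Both rises were smaller in KO-labelled cells (−0.86 ± 0.12 for Acvr1, adjusted p = 0.00402, and −0.87 ± 0.13 for Bmpr2, adjusted p = 0.00524). Of the 13 adaptor and turnover genes, 3 rose and 2 fell in KO-labelled cells (median −0.14), and 6 rose and none fell in WT (median 0.28). Beside both lists, 20.6% of all genes tested rose and 18.0% fell in KO-labelled cells. In WT the shares were 19.4% and 17.6%. Pmepa1, which encodes a membrane protein that limits access of Smad2 and Smad3 to the receptor, rose by 2.19 ± 0.12 in KO-labelled and 2.32 ± 0.12 in WT cells. The ubiquitin ligase gene Smurf2 rose by 0.62 ± 0.08 in WT, with a smaller change in KO-labelled cells (difference −0.50 ± 0.12, adjusted p = 0.025). Between genotypes the endocytic adaptor gene Dab2 stood furthest apart, at 6374 and 7535 normalized counts in KO-labelled cells and 313 and 397 in WT under TGFβ (4.29 ± 0.14, adjusted p = 6.89e-07). Smad5, a BMP-responsive SMAD, was lower in KO-labelled cells under TGFβ (−1.06 ± 0.11) and with the inhibitor (−0.82 ± 0.11).

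In the embryoid bodies, WT cells at day 4 had more transcript of 8 of the 9 genes than at day 0, beside 32.3% of all genes tested called higher and 63.1% called in either direction, and in KO-labelled cells the receptor genes Tgfbr1, Tgfbr2 and Acvr2a did not share that rise. Tgfbr1 was at 1526 and 1641 normalized counts at day 4 and 2529 and 2703 at day 0 in KO-labelled cells. In WT it was at 1693 and 1912 at day 4 and 1113 and 1014 at day 0. The KO-labelled libraries at day 0 were the highest of the 8 and the WT libraries at day 0 the lowest. Tgfbr1 fell by 0.72 ± 0.08 between the days in KO-labelled cells (adjusted p = 3.71e-06) and rose by 0.76 ± 0.08 in WT (adjusted p = 1.88e-06), a difference of −1.48 ± 0.12 (adjusted p = 1.6e-07). At day 0 it was 2.46-fold higher in KO-labelled than in WT cells (1.30 ± 0.08, adjusted p = 8.24e-09). At day 4 the difference was −0.19 ± 0.08 (adjusted p = 0.0681), past the threshold on rescaling (0.00796), on quantile normalization (0.0216) and without the first WT or the second KO library at day 4 (0.0418 and 0.0458).

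Tgfbr2 was scarce in these cells, where it was read at 40.7 and 43.4 normalized counts at day 4 and 65.3 and 56.4 at day 0 in KO-labelled cells, and at 116 and 141 at day 4 and 27.8 and 37.5 at day 0 in WT. The WT libraries at day 4 were above the other 6. Its change in KO-labelled cells was −0.52 ± 0.23 (adjusted p = 0.0621, and 0.017 after quantile normalization), and it rose 3.87-fold in WT (1.95 ± 0.23, adjusted p = 4.01e-06). The difference between the changes was −2.47 ± 0.32 (adjusted p = 1.91e-05). Tgfbr2 was higher in KO-labelled than in WT cells at day 0 (0.89 ± 0.23, adjusted p = 0.00321) and lower at day 4 (−1.58 ± 0.23, adjusted p = 3.76e-05).

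Tgfbr3 had the widest range of the 9 genes here as well. It was at 146 and 101 normalized counts at day 4 and 35.6 and 44.9 at day 0 in KO-labelled cells, and at 534 and 525 at day 4 and 48.6 and 50.9 at day 0 in WT. The days did not overlap in either genotype. Tgfbr3 rose 2.98-fold in KO-labelled cells (1.57 ± 0.20, adjusted p = 1.06e-05) and 10.5-fold in WT (3.39 ± 0.20, adjusted p = 3.29e-09), with a difference of −1.81 ± 0.28 (adjusted p = 9.16e-05). At day 4 it was lower in KO-labelled than in WT cells (−2.12 ± 0.20, adjusted p = 5.6e-07), while at day 0 the difference was −0.31 (95% interval −0.73 to 0.12). Among 12280 genes, near patterns were those of Thsd7a and Hmcn1, with root mean square differences of 0.217 and 0.226. Thsd7a, a thrombospondin domain gene, averaged 83.4 normalized counts at day 4 and 32.7 at day 0 in KO-labelled cells, and 344 at day 4 and 37.6 at day 0 in WT.

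**Figure D3:**
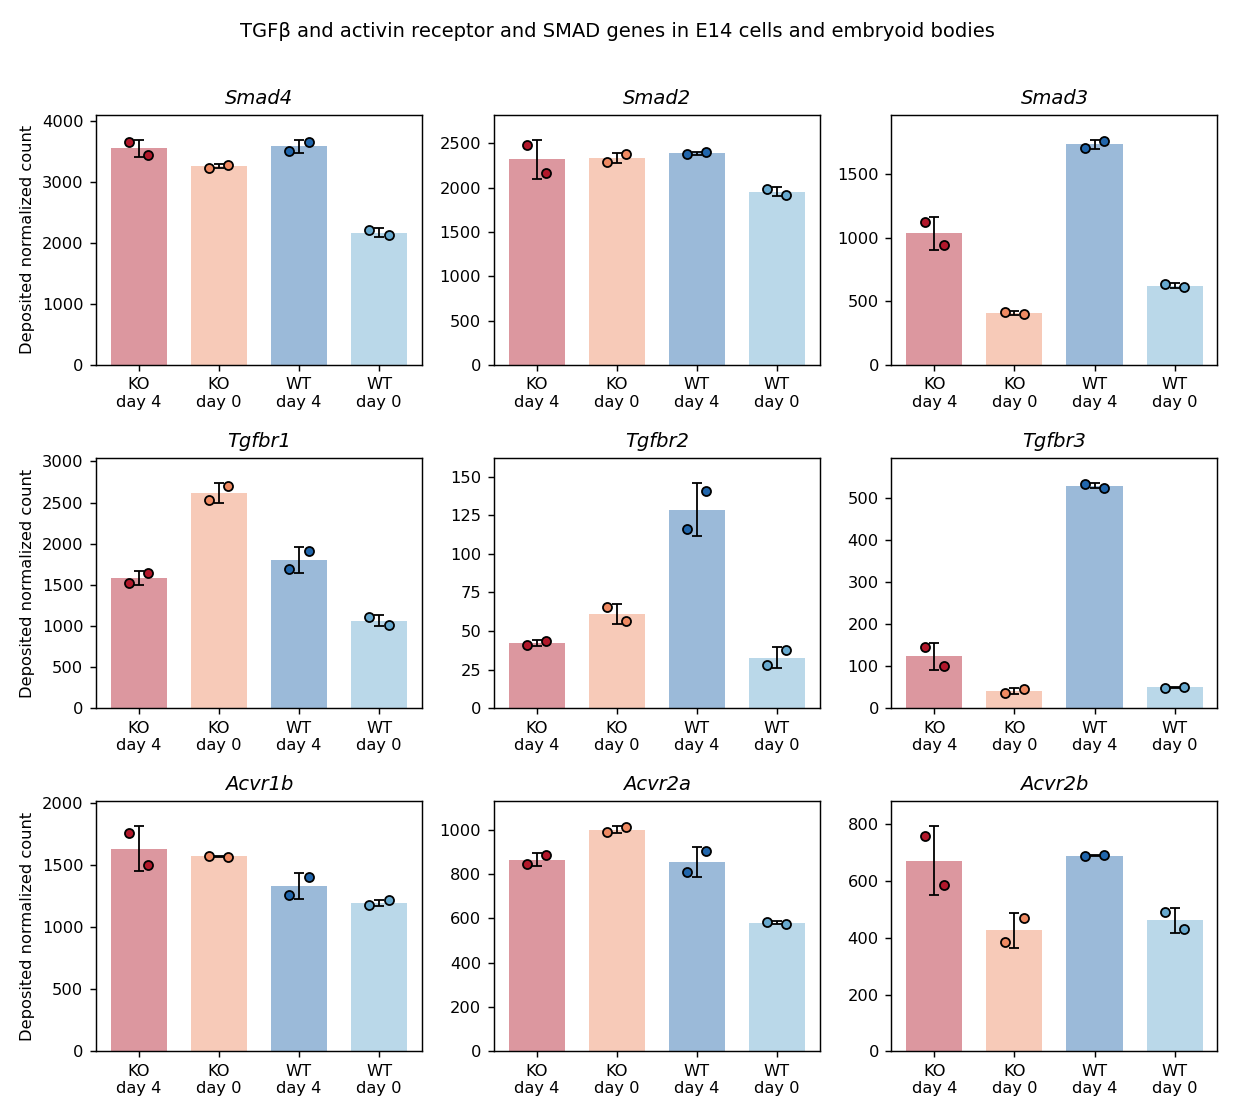
Deposited normalized count (y axis, from 0) of each of the 9 genes in E14 cells and embryoid bodies, with KO-labelled cells left of WT and day 4 left of day 0; points are libraries, bars are means and error bars are SD (n = 2). Tgfbr2 and Tgfbr3 were highest in WT cells at day 4, and Tgfbr1 in KO-labelled cells at day 0.

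Mesoderm and endoderm marker sums were highest in WT cells at day 4, where Tgfbr2 and Tgfbr3 were highest. Tgfbr1 was instead highest in KO-labelled cells at day 0. The 5 mesoderm or primitive streak markers summed to 736 to 744 normalized counts in KO-labelled cells at day 4 and 284 to 301 at day 0, against 5514 to 10052 in WT at day 4 and 132 to 154 at day 0. The 4 endoderm markers summed to 146 to 166 in KO-labelled cells at day 4 and 291 to 294 at day 0. In WT they summed to 2064 to 2835 at day 4 and 148 to 189 at day 0. At day 4, 6 fibroblast markers summed to 347 to 498 in KO-labelled and 3438 to 4631 in WT cells. Of these, Lum stood at most at 2.88 and Dcn at 13.1 in the EB libraries. The endothelial list was higher in KO-labelled than in WT cells on both days, and higher at day 0 than at day 4 in both genotypes. It summed to 3415 to 3444 at day 4 and 5894 to 6052 at day 0 in KO-labelled cells. In WT it summed to 1205 to 1342 at day 4 and 3224 to 3277 at day 0. Over the EB libraries Pecam1 ranged from 1006 to 4825 and Tek from 166 to 1269, with Cdh5 at most at 52.2. The 6 pluripotency markers summed to 64026 to 66081 in KO-labelled and 32671 to 33242 in WT cells at day 4. The part of a different mix of cell types in the receptor values was not tested.

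Among the SMADs in embryoid bodies, Smad3 rose with time in both genotypes. It was at 1127 and 941 normalized counts at day 4 and 416 and 397 at day 0 in KO-labelled cells, and at 1708 and 1761 at day 4 and 637 and 610.5 at day 0 in WT. The KO-labelled libraries were below the WT libraries of the same day. Smad3 rose by 1.34 ± 0.09 in KO-labelled (adjusted p = 2.43e-08) and 1.47 ± 0.09 in WT cells (adjusted p = 6.91e-09), and the difference was −0.13 (95% interval −0.41 to 0.15). It was lower in KO-labelled than in WT cells at day 0 (−0.62 ± 0.09, adjusted p = 4.04e-05) and at day 4 (−0.75 ± 0.09, adjusted p = 8.97e-06).

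Smad4 was at 3652 and 3446 normalized counts at day 4 and 3235 and 3284 at day 0 in KO-labelled cells, and at 3511 and 3659 at day 4 and 2218 and 2122 at day 0 in WT. The WT libraries at day 0 were below the other 6. The change of Smad4 in KO-labelled cells was 0.12 ± 0.07 (adjusted p = 0.121, and 0.00626 after quantile normalization), it rose by 0.72 ± 0.07 in WT (adjusted p = 2.93e-07), and the changes differed by −0.60 ± 0.09 (adjusted p = 8.12e-05). At day 0 it was higher in KO-labelled than in WT cells by 0.59 ± 0.07 (adjusted p = 2.09e-06), and at day 4 the groups overlapped.

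Smad2 had a small pattern of the same shape. It was at 2476 and 2159.5 normalized counts at day 4 and 2294 and 2378 at day 0 in KO-labelled cells, and at 2374 and 2401 at day 4 and 1988 and 1916 at day 0 in WT. Its change was −0.01 ± 0.07 in KO-labelled cells, and it rose by 0.29 ± 0.07 in WT (adjusted p = 0.00351). The difference of −0.30 ± 0.11 (adjusted p = 0.0236) was lost without the second WT library at day 0 (adjusted p = 0.0878), either WT library at day 4 (0.0613 and 0.0764), or the second KO library of either day (0.0777 at day 0 and 0.0703 at day 4). Smad2 was higher in KO-labelled than in WT cells at day 0 (0.26 ± 0.07, adjusted p = 0.00681), which was lost on quantile normalization (0.0921) and without the second WT or the second KO library of that day (0.0596 and 0.0517).

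Of the activin and Nodal receptors, Acvr2a was at 844 and 885 normalized counts at day 4 and 987 and 1011 at day 0 in KO-labelled cells, and at 807 and 903 at day 4 and 584 and 577 at day 0 in WT. Its fall by 0.21 ± 0.08 in KO-labelled cells (adjusted p = 0.0446) was lost under 9 of the 15 alternatives. Among them were edgeR (adjusted p = 0.0655), DESeq2 (0.0968), rescaling (0.0689) and quantile normalization (0.0780). The call was also lost without either KO library at day 0 (log2 change −0.23 and −0.19) or the first KO library at day 4 (−0.17). Without either WT library at day 0 the call was lost too, although the change stayed at −0.21. Those libraries enter it only through the shared spread. In WT, Acvr2a rose by 0.56 ± 0.08 (adjusted p = 4.87e-05). The changes differed by −0.76 ± 0.12 (adjusted p = 9.32e-05), and at day 0 Acvr2a was higher in KO-labelled than in WT cells by 0.78 ± 0.08 (adjusted p = 1.52e-06). Its relative Acvr2b rose in both genotypes, to 757 and 585 at day 4 against 383 and 469 at day 0 in KO-labelled cells (0.65 ± 0.13, adjusted p = 0.000595) and to 688 and 690.1 against 492 and 430.0 in WT (0.58 ± 0.13, adjusted p = 0.00128). Acvr1b was at 1763 and 1507 at day 4 and 1574 and 1569.9 at day 0 in KO-labelled cells, and at 1261 and 1410.0 at day 4 and 1183 and 1217 at day 0 in WT. It was the gene of the 9 with no call between days in WT (0.15 ± 0.09, adjusted p = 0.136, although 0.0367 on rescaling). It was higher in KO-labelled than in WT cells at day 0 (0.39 ± 0.09, adjusted p = 0.00106) and at day 4 (0.29 ± 0.09, adjusted p = 0.00995), the second call being lost on rescaling (0.0671) and without the first WT or the first KO library of that day (0.126 and 0.0992).

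Between the days, 5 of the 9 genes were called in KO-labelled cells beside 60.0% of all genes tested in the EB table: 3 higher at day 4 (29.1% of all genes) and 2 lower (30.9%). In WT, 8 of the 9 were called beside 63.1%, all 8 higher (32.3%) and none lower (30.8%). The difference between the changes was called for 6 beside 55.7%, all with the lower change in KO-labelled cells (28.6%) and none with the higher (27.1%). The medians over the 9 were 0.052 in KO-labelled and 0.72 in WT cells, with −0.60 for the difference, against −0.023, −1.2e-05 and −0.014 over all genes. KO-labelled against WT cells gave 7 calls at day 0 beside 67.2%, 6 higher (33.9%) and 1 lower (33.3%), and 4 at day 4 beside 56.2%, 1 higher (27.8%) and 3 lower (28.4%). The medians were 0.39 at day 0 and −0.050 at day 4, against −0.00071 and −0.010.

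From the further receptors and SMADs, 12 of 13 passed the filter in the EB table, and 5 rose and 3 fell in KO-labelled cells (median 0.26), against 7 and 3 in WT (median 0.71). The BMP receptor gene Bmpr1a rose by 0.41 ± 0.07 in KO-labelled and 1.17 ± 0.07 in WT cells. Tdgf1, the Nodal co-receptor Cripto, fell by 1.28 ± 0.09 in WT, and its change was higher in KO-labelled cells by 1.56 ± 0.12 (adjusted p = 1.37e-07). At day 4 it stood at 20792 and 17582.5 normalized counts in KO-labelled and 10493 and 11845 in WT cells. Bambi, a decoy receptor gene, rose by 1.44 ± 0.14 in WT and was lower in KO-labelled cells at day 4 (−1.79 ± 0.14). All 14 adaptor and turnover genes passed, with 6 rising and 2 falling in each genotype (median 0.16 in KO-labelled and 0.056 in WT cells). Beside both lists, 29.1% of all genes tested rose and 30.9% fell in KO-labelled cells. In WT the shares were 32.3% and 30.8%. Foxh1, the DNA-binding partner of Smad2 in Nodal responses, rose by 0.88 ± 0.10 in KO-labelled and 1.14 ± 0.10 in WT cells. Dab2 was at 230 and 254 normalized counts at day 4 in KO-labelled cells, against 3689.5 and 3084 in WT, the opposite order to that in the PDA cells (−3.80 ± 0.11 at day 4, adjusted p = 5.03e-12).

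In the organoids each condition was 1 library, so the values have no replicate check and no test, and intervals are exact 95% counting intervals that cover counting error only. Smad4 was at 3052 normalized counts under TGFβ and 2645 under SB505124 with doxycycline, and at 3588 under TGFβ and 3224 under SB505124 without it. Tgfbr3 was lower under TGFβ both with doxycycline (36.2 against 115 normalized counts, log2 ratio −1.64, interval −2.27 to −1.11) and without it (107 against 164, −0.61, −0.98 to −0.26), the opposite sign to that in the PDA cells. Tgfbr1 was at 3829.7 under TGFβ and 2288 under SB505124 with doxycycline (0.74, 0.67 to 0.81) and at 3492 and 2833 without it (0.30, 0.23 to 0.37). Tgfbr2 was at 11551 under TGFβ and 12887 under SB505124 with doxycycline (−0.16, −0.19 to −0.12) and at 9923 and 13127 without it (−0.40, −0.44 to −0.37). The sign of Tgfbr1 and of Tgfbr2 was therefore the same as in PDA cells of both genotypes. In KO-labelled PDA cells the Tgfbr2 change (−0.08) had no call. Past 1.5-fold between TGFβ and SB505124 with doxycycline were 2 of the 9 genes beside 15.0% of 13443 genes, Tgfbr1 higher (7.74% of all genes) and Tgfbr3 lower (7.23%). Without it Tgfbr3 alone was, beside 16.5%, on the lower side (8.02%, with 8.44% of all genes on the higher side). The control targets Smad7 and Skil had log2 ratios of 2.27 and 2.20 with doxycycline and 1.67 and 1.45 without it.

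With doxycycline against without it, 3 of the 9 genes were past 1.5-fold under TGFβ, beside 35.0% of all genes, and 2 under SB505124, beside 36.2%. All of them were lower with doxycycline, a side on which 18.2% of all genes lay at each treatment, with 16.8% on the higher side under TGFβ and 18.0% under SB505124. Acvr1b was at 1964 normalized counts with doxycycline and 3082 without it under TGFβ (−0.65, −0.74 to −0.56), and at 2094 and 3179 under SB505124 (−0.60, −0.67 to −0.53). Smad3 was at 4226 with doxycycline and 7589 without it under SB505124 (−0.84, −0.89 to −0.80), and at 5653 and 7761 under TGFβ (−0.46, −0.51 to −0.41). Under TGFβ, Tgfbr3 was at 36.2 with doxycycline and 107 without it (−1.54, −2.19 to −0.98). Acvr2b, from 32 and 53 reads, had an interval that spanned 0 (−0.61, −1.30 to 0.039). Smad2 was the gene of the 9 with a higher value with doxycycline at both treatments, at 2285 against 1818 under TGFβ and 1994 against 1669.7 under SB505124.

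Across the 20 libraries, levels were set side by side as RPM (a gene's recovered reads for each megaread over listed genes), with no test, because the 3 tables were normalized separately and come from different cells. Within a gene these levels can be compared, and between genes they cannot, since transcript length was not used. Tgfbr2 had the widest range, 419-fold, with 158 to 192 RPM in PDA cells, 1.15 to 6.11 in E14 cells and EBs and 351 to 484 in organoids, and the ranges did not overlap. Acvr2b had the reverse order, with 15.5 to 30.8 in E14 cells and EBs, against 1.04 to 2.66 in PDA cells and 1.28 to 1.97 in organoids, and the last pair of ranges overlapped. Smad3 was at 153 to 291 in PDA cells and 159 to 275 in organoids, which overlapped, and at 15.7 to 76.4 in E14 cells and EBs. Smad4 was at 43.4 to 99.3 in PDA cells, 88.1 to 159 in E14 cells and EBs and 99.3 to 127 in organoids, and the lowest 2 of all 20 libraries were the KO-labelled PDA cells under TGFβ (43.4 and 44.1). Smad2 varied least, from 58.7 to 104 RPM, or 1.77-fold. Tgfbr3 reached 22.8 and 23.3 in WT EBs at day 4 and lay between 1.24 and 5.93 in every other library. Tgfbr1 (42.1 to 142), Acvr1b (26.3 to 112) and Acvr2a (23.9 to 61.4) had their highest library in organoids, and their PDA and EB ranges overlapped.

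**Figure D4:**
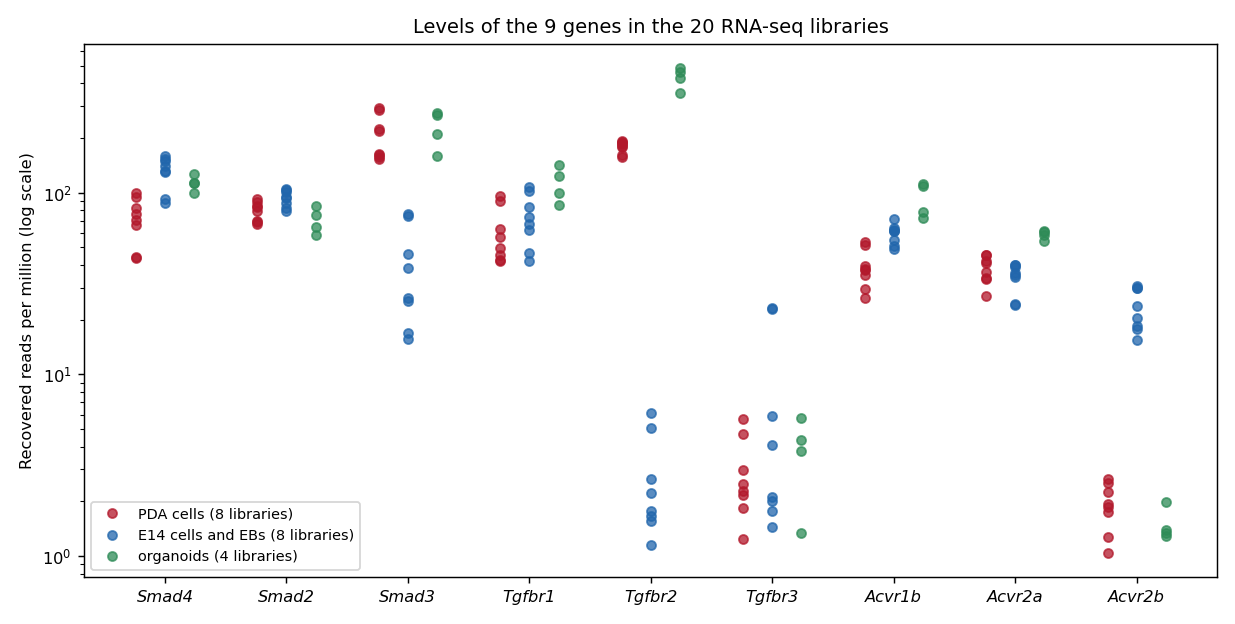
Recovered RPM (y axis, log scale) of each gene in the 20 libraries, with PDA cells, E14 cells and embryoid bodies, and organoids side by side; each point is a library, and heights can be compared within a gene only. Tgfbr2 spans 1.15 to 484 and Smad2 58.7 to 104.

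Because a ratio of 2 genes in the same library depends little on how libraries were scaled, 3 pairs of relatives were also followed as log2 ratios of value + 1. The added 1 leaves a small dependence for low genes (Tgfbr2 in EBs, Acvr2b in PDA cells and organoids). Exact two-sided permutation tests compared 4 against 4 libraries over 12 comparisons. The smallest p that this design allows is 0.0286, and none of the 12 passed 0.05 after adjustment. A comparison at that smallest p could pass only if most of the 12 were at it too. The lack of a pass therefore says little about any single ratio. Each test also pooled over the other factor (genotype, treatment or day). Smad2 relative to Smad3 was lower under TGFβ than under SB505124 in PDA cells in all 4 libraries (mean −1.58 ± 0.25 and −1.11 ± 0.16, SD, difference −0.47, exact p = 0.0286, adjusted p = 0.114). It was also lower in all 4 day 4 libraries than in the day 0 libraries (0.81 ± 0.41 and 2.08 ± 0.51, difference −1.27, exact p = 0.0286, adjusted p = 0.114). Tgfbr2 relative to Tgfbr1 was lower under TGFβ in PDA cells (1.21 ± 0.51 and 2.05 ± 0.06, difference −0.84, exact p = 0.0286, adjusted p = 0.114). In untransformed values that receptor ratio was 2.94 to 3.35 under TGFβ and 4.14 to 4.31 under SB505124 in KO-labelled cells, and 1.64 to 1.78 under TGFβ and 3.90 to 4.19 under SB505124 in WT. In the organoids it was 3.02 under TGFβ and 5.63 under SB505124 with doxycycline, and 2.84 and 4.63 without it. The other 9 comparisons gave exact p-values from 0.114 to 0.6. The Acvr2a to Acvr2b ratio was 12.1 to 35.5 in PDA cells, 1.12 to 2.58 in E14 cells and EBs and 29.5 to 47.5 in organoids.

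**Figure D5:**
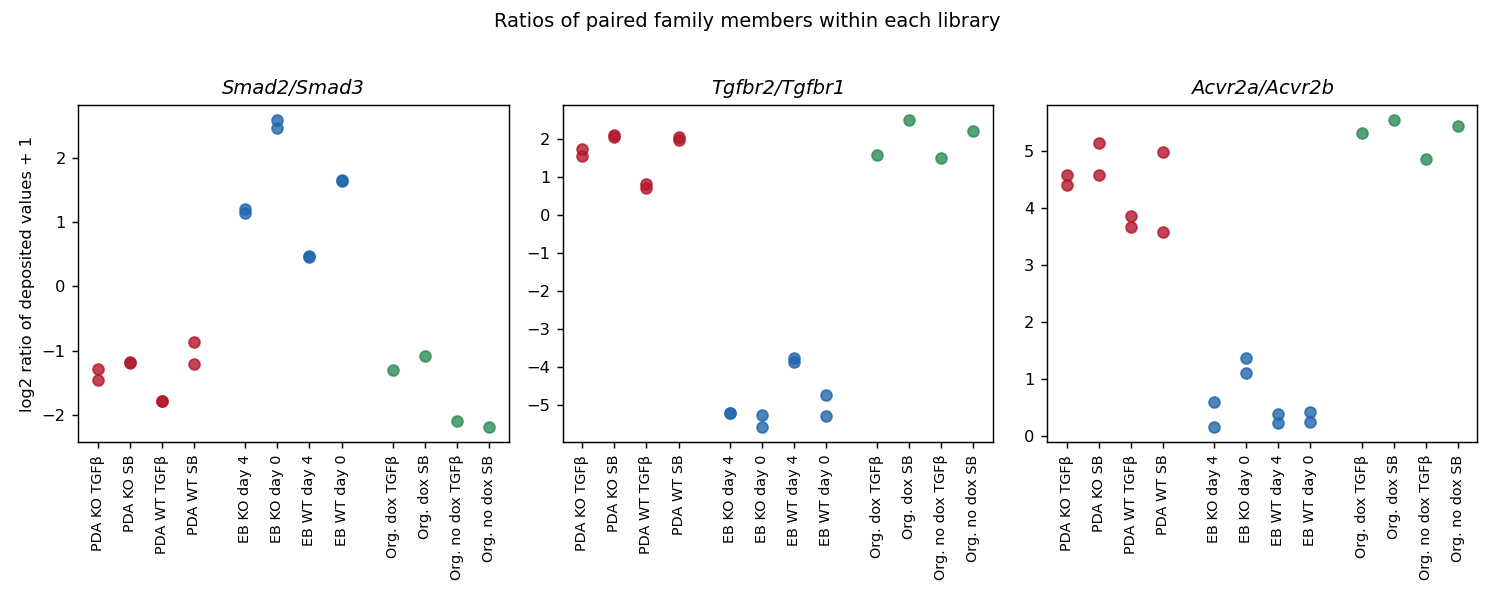
Log2 ratio (y axis) of Smad2 to Smad3, Tgfbr2 to Tgfbr1 and Acvr2a to Acvr2b within each library, by group (x axis), with PDA cells in red, E14 cells and embryoid bodies in blue and organoids in green; each point is a library. The Tgfbr2 to Tgfbr1 ratio in PDA cells is lower under TGFβ than under SB505124 in both genotypes, and lowest in WT (1.64 to 1.78 untransformed).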

How the data were processed

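Bulk RNA-seq of 20 mouse libraries was used. Not used here were 1 ATAC-seq and 15 ChIP-seq samples. Build mm10 and the tools HTSeq 0.6.1p1, DESeq2 3.4, Bowtie2, HOMER and FastQC 0.11.5 are named, per the submitters' processing notes. No source used here gives the strand setting of the counting. The deposited tables hold a signal unit, gene counts divided by a size factor per library, normalized by the authors separately for each table. All values in the 20 libraries came out as whole reads within 0.001 of a read, so depth was recovered. Genes at 10 or more in at least 2 libraries (13226 PDA, 15227 EB) were tested as log2(value + 1) with limma 3.58.1 in R 4.3.3, with all 4 groups of a table in the fit and Benjamini-Hochberg adjustment over all genes tested; a call is an adjusted p under 0.05. Fold changes on this scale understate changes of low genes. Organoid ratios, over genes with a mean of at least 10, have exact 95% counting intervals. Library depth sets their width, and intervals cover counting error only, since reads are not independent molecules. The alternatives, 15 for each contrast, included edgeR 4.0.16 and DESeq2 1.42.0 on recovered reads and each library left out. Scripts were tested on simulated data and used Python 3.11.15, numpy 2.4.6, pandas 2.3.3, scipy 1.17.1 and matplotlib 3.10.9. The 9 genes and the lists were chosen with earlier results of these data known. Beyond the 9, the text names the 3 genes nearest in pattern to Smad4 and to the gene of widest range (1 of them is not reported here), and genes from up to 4 per list and contrast with the smallest adjusted p. RefSeq promoters matched 6 of the 9 genes; Smad2, Smad4 and Tgfbr3 had none. Date-like names, 25 in the organoid and 27 in the EB table, were kept as listed.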

Additional observations from a re-analysis of the deposited data

Results flagged for a closer look

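The TGFβ response of PDA cells differed between KO-labelled and WT cells by the interaction term for Smad4 (−1.43), Acvr1b (−1.004), Tgfbr1 (−0.63) and Smad3 (−0.40), each the response in KO-labelled cells minus that in WT on the log2 scale. Smad4 and Acvr1b had responses of opposite sign in the genotypes, and their differences ranged from −1.49 to −1.36 and from −1.08 to −0.93 over the 15 alternatives. The change between day 4 and day 0 in embryoid bodies differed between KO-labelled and WT cells for Tgfbr2 (−2.47), Tgfbr3 (−1.81), Tgfbr1 (−1.48), Acvr2a (−0.76), Smad4 (−0.60) and Smad2 (−0.30).

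Single libraries stood apart in 2 sets of 4, where the gap to the nearest library took a larger share of the range than the 95% limit of Dixon's test. The log2 ratio of Smad2 to Smad3 in the 4 PDA libraries under SB505124 had a share of 0.925, with the first WT library at −0.87 and the others between −1.21 and −1.18. The log2 ratio of Tgfbr2 to Tgfbr1 in the 4 KO-labelled EB libraries had a share of 0.833, with the second day 0 library at −5.56. The limit was applied to both sides of each of the 12 ratio comparisons, in sets that share libraries. All of these sets mix genotypes, treatments or days, and chance marks about 1 in 20 groups.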

How the results depend on the processing

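Of 90 results for the 9 genes in the PDA and EB tables, 55 were called. The share of all genes called in the same contrasts ran from 21.8% to 67.2%. Of the 55, 40 stayed called under all 15 alternatives and 15 were lost under at least 1 (8 of them only when a library was left out). Another 10 uncalled results passed under at least 1, and no call reversed. How many calls over all genes stayed under every alternative was not counted. Leaving out 1 library gave these ranges of genes called: 2254 to 5183 for TGFβ in WT PDA cells, 2956 to 5931 in KO-labelled cells, 764 to 3881 for their difference, 5512 to 7689 for KO-labelled against WT with the inhibitor and 3212 to 6148 under TGFβ; and in EBs 7842 to 9990 between days in WT, 7626 to 8847 in KO-labelled cells, 7108 to 8430 for their difference, 8663 to 10564 between genotypes at day 0 and 6904 to 8452 at day 4. Of the 9 genes, the same settings called 3 to 6, 4 to 5, 2 to 5, 3 to 5 and 3 to 6 in PDA cells and 8, 4 to 5, 5 to 6, 6 to 7 and 3 to 5 in EBs, in that order. The WT TGFβ libraries decided most: without the first, 2254, 764 and 3212 genes were called for TGFβ in WT, for the difference and for KO-labelled against WT under TGFβ, and without the second 2286, 827 and 3266. Without the first or second KO SB505124 library, 2956 and 3148 were called for TGFβ in KO-labelled cells and 940 and 1188 for the difference. Deviations of same-numbered libraries correlated over genes at −0.51 to 0.14 between PDA groups and −0.03 to 0.09 between EB groups. The −0.51 was between WT under SB505124 and KO-labelled cells under TGFβ, so libraries with crossed numbers in those groups deviated alike. A block on replicate number does not take up such a pattern, and its source was not tested. A replicate block gave 1596 genes (598 higher, 998 lower) for the PDA difference against 2886 without it, and took the PDA difference for Smad3 to an adjusted p of 0.0511 and Acvr2a between genotypes under TGFβ to 0.0533. Rescaling to the same total moved the split of higher and lower calls from 2731 and 2382 to 3830 and 1802 for TGFβ in KO-labelled PDA cells, from 3828 and 3600 to 2975 and 4901 between genotypes with the inhibitor, from 1284 and 1602 to 1869 and 1388 for the difference, from 2808 and 2508 to 2360 and 3305 under TGFβ, and from 4236 and 4319 to 3428 and 5331 at day 4 in EBs; the cause was not tested. In organoids, no gene of the 9 was past 1.5-fold for TGFβ without doxycycline with a pseudocount of 8 (0, against 1), and 1 was, against 2, for doxycycline under SB505124 after rescaling. Depth limits the low genes Tgfbr3 and Acvr2b most.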
